A study of Homo sapiens with 2 samples.

Results

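Extracellular matrix is cut by matrix metalloproteinases (MMPs), by the related ADAMTS proteases and by plasmin, and each of these is held in check by inhibitors. The levels of 50 genes of this system were compared between parental A1847 cells, a human epithelial ovarian cancer line with a high level of the arginine methyltransferase CARM1, and CARM1 KO A1847 cells. Members were the protein-coding genes whose symbol is MMP, TIMP or ADAMTS followed by a number (ADAMTSL genes left out), together with A2M, A2ML1, PLAU, PLAUR, PLAT and RECK. The annotation held 52 such genes, and 50 of them were among the 57736 genes of the count table. MMP12 and MMP28 were not analysed here, because the identifiers that the annotation gives them matched no row. MMP24OS, a protein-coding gene on the strand opposite MMP24, begins with the same letters but is no metalloproteinase and was left out.

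The knockout was made in A1847 cells with pLentiCRISPR v2 carrying a CARM1 guide RNA, and the study calls the CARM1 KO cells a clone. The controls were the parental cells, labelled CARM1 wild type. Both were grown in the same medium with serum, and no drug treatment is given in the labels. RNA-Seq was done on 1 library per genotype, so no difference below has a replicate within these data and none has a P value. What the loss of CARM1 does and what sets 1 clone apart from the line it came from cannot be told apart.

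Read totals were 30741953 in parental and 32300391 in CARM1 KO cells. CARM1 itself had 975 reads in parental against 380 in CARM1 KO cells, 2.63-fold lower (95% counting interval 2.33 to 2.97) after the scaling described below. This was under the 3-fold threshold used below. CARM1 protein, which the study examined in both by immunoblot, was not measured here. Of the epithelial ovarian cancer markers, KRT18 was the most abundant by reads in parental cells, with 21154 reads, and KRT8 in CARM1 KO cells, with 70370 reads. PAX8 had 311 and 1149 reads, while WT1 had 8 reads and 1 read and MUC16 had 0 reads and 1 read in parental and CARM1 KO cells. Of 8 leukocyte and macrophage markers, 2 were scored and CD68 was higher past 3-fold, at 400 and 1644 reads, while PTPRC, which defines leukocytes, had 6 and 0 reads. Of 6 endothelial markers analysed, 2 were scored and ERG was higher, at 38 and 172 reads, while CDH5, which defines endothelium, had 0 reads in both. Fibroblast marker genes differed between the libraries, with 6 of 8 scored markers lower past 3-fold (COL1A2, COL3A1, PDGFRA, THY1, LUM and DCN) and a summed level per length of 172 in parental and 2.56 in CARM1 KO cells. Of the epithelial markers, 6 of 8 scored were higher and KRT19, at 45 and 0 reads, was lower. Over all genes scored in the same way, 12.3% were higher and 10.1% were lower past 3-fold. PDGFRA had 14326 reads in parental against 2 in CARM1 KO cells, COL1A2 had 16732 and 3, and THY1 had 678 and 4. COL1A1 went the other way, from 131 to 537 reads.

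MMPs are zinc proteases that are made as inactive proenzymes and together can cut most matrix proteins. Some are secreted, and the membrane-type enzymes stay on the cell surface, where they also activate other MMPs. ADAMTS proteases carry thrombospondin repeats that bind them to matrix, and include enzymes that cut proteoglycans and enzymes that trim procollagens. TIMPs block MMPs and some ADAMTS enzymes by filling the active site, alpha-2-macroglobulin traps proteases of all classes, and RECK restrains MMPs at the membrane. The plasminogen activators PLAT and PLAU turn plasminogen into plasmin, and PLAUR holds PLAU on the cell surface. In ovarian cancer these enzymes are known for their part in the spread of tumour cells over the peritoneum.

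Reads were scaled by edgeR's TMM method, which set the CARM1 KO library at 1.02 times the effective size of the parental library. A gene was scored when it had at least 20 reads in both libraries together, and called when its scaled level differed by more than 3-fold, the fold threshold used in the study. Intervals are exact 95% binomial (Clopper-Pearson) intervals of the fold change and cover counting error only. Where a library had 0 reads, the fold change is a bound computed against 3 reads, the upper limit that a count of 0 allows. That bound leaves out the counting error of the other library, and the exact interval begins lower, at 347-fold for TIMP3.

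Of the 50 genes, 32 were scored, and 15 of these were higher and 4 were lower in CARM1 KO cells past 3-fold. The count of higher members rested on the threshold: it was 6 with a fold above 5, and 4 (ADAMTS2, ADAMTS9, MMP19 and PLAT) by edgeR's exact test with an assumed coefficient of variation of 0.4, while the lower ones numbered 4 under both. Over all 16742 scored genes, 12.3% were higher and 10.1% were lower past 3-fold, and over the 13502 scored protein-coding genes 12.1% were higher and 8.43% were lower. The matrix protease genes were thus called higher in 46.9% of those scored, against 12.3% over all genes, while the 12.5% called lower lay near the background. The median log2 fold change was 0.90 over the scored members and -0.01 over all scored genes. Another 13 scored members stayed under 3-fold. Of the 18 genes that were not scored, 7 had 0 reads in both libraries. Because a gene with few reads is scored only where it is high enough in a library, these counts are a description of the scored genes and not of all 50.

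Among the members, most called proteases were higher in CARM1 KO cells, and of 4 called inhibitors most were lower. Serpin inhibitors, which are no members and are given below, went mostly the other way, with 5 of 7 higher and 1 lower. Among the 43 genes that are proteases or PLAUR, 26 were scored, 14 of them higher and 1 lower past 3-fold. Of the 7 inhibitor genes (TIMP1 to TIMP4, A2M, A2ML1 and RECK), 6 were scored, 1 of them higher and 3 lower. The difference between these groups was not tested.

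**Figure D1:**
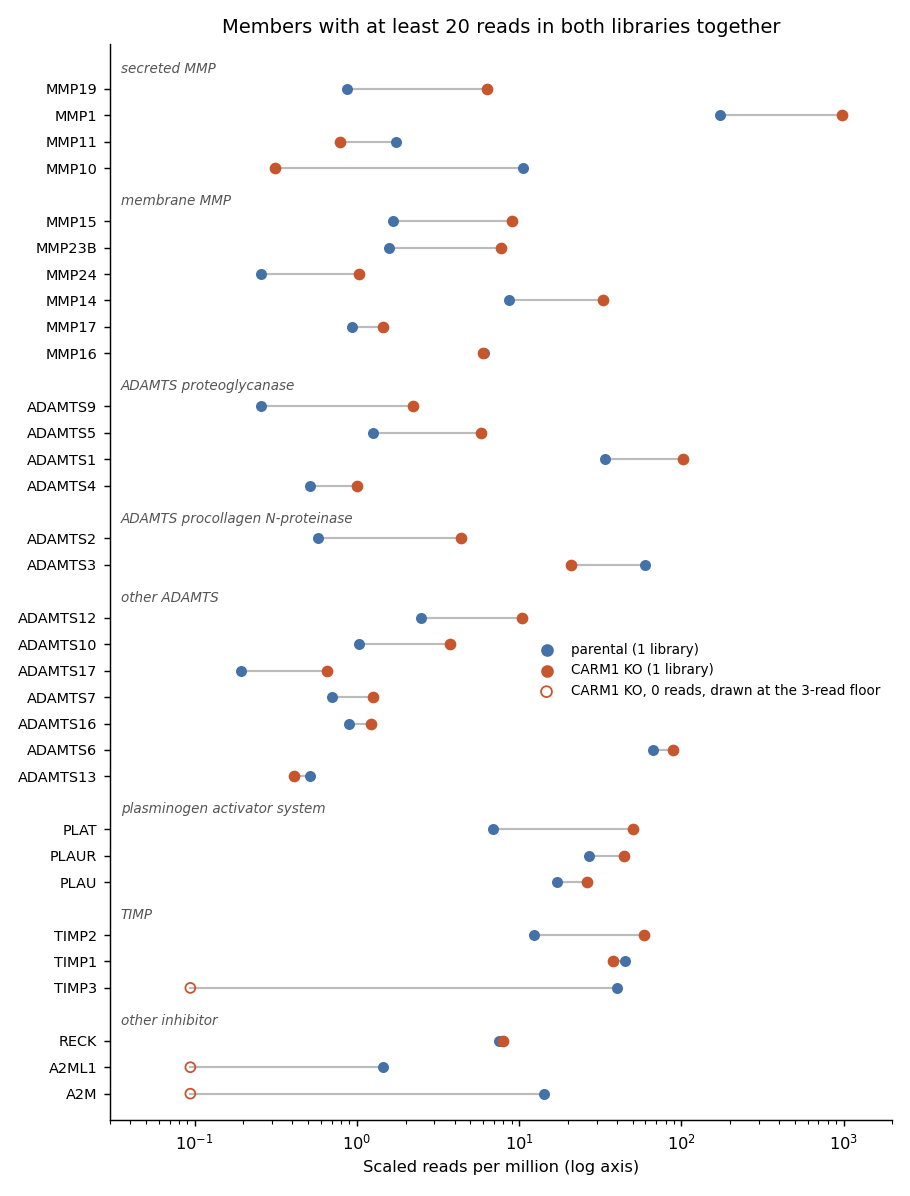
TMM-scaled read level (CPM), on a log axis, in the parental library (blue) and the CARM1 KO library (orange) for the 32 members with at least 20 reads, ordered by role. TIMP3, A2M and A2ML1, with 0 reads in CARM1 KO cells, are drawn as open circles at the 3-read floor, and MMP1 lies furthest to the right in both libraries.

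The regions before the start of 5 members are shown here, chosen for contrasts described below: TIMP3, A2ML1 and MMP10, the members called lower that the promoter table matched, and the procollagen proteases ADAMTS2 and ADAMTS3, of the same role, of which the former was higher past 3-fold and the latter had a lower level but was under the threshold. Each is the 250 bases before the gene's start (the most upstream start where the table held several) from the RefSeq promoter table, build GRCh38.p14, written 5′ to 3′ on the gene's strand with each CG dinucleotide in capitals. They lie at chr22:32801455-32801704 on the plus strand for TIMP3, chr12:8822371-8822620 on the plus strand for A2ML1, chr11:102780629-102780878 on the minus strand for MMP10, chr5:179345462-179345711 on the minus strand for ADAMTS2 and chr4:72569222-72569471 on the minus strand for ADAMTS3.
TIMP3: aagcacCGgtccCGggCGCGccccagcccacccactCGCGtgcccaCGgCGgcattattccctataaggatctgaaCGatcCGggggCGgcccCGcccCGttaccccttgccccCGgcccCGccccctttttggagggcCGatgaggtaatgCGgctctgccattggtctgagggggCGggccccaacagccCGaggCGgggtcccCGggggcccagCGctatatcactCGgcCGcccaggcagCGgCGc
A2ML1: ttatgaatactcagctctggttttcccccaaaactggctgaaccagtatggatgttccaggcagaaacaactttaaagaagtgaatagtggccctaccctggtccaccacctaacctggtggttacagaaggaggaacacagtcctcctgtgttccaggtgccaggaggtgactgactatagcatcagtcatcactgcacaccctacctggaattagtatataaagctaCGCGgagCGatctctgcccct
MMP10: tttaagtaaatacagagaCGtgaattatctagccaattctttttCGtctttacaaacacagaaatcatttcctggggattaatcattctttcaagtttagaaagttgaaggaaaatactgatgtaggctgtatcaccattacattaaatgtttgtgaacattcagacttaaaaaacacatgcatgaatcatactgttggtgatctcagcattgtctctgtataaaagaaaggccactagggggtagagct
ADAMTS2: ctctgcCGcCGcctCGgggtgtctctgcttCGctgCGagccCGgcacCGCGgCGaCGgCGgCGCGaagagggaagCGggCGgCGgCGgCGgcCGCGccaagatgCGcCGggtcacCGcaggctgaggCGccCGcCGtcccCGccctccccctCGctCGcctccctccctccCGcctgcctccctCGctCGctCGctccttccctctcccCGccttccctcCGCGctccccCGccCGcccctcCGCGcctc
ADAMTS3: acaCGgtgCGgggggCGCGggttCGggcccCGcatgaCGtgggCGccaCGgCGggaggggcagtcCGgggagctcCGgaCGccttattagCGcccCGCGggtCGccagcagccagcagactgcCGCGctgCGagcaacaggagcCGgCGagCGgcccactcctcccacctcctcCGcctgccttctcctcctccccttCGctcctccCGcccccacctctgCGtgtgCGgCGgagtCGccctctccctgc

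These windows held 26 CG dinucleotides for TIMP3, 3 for A2ML1, 2 for MMP10, 40 for ADAMTS2 and 30 for ADAMTS3. Genes lower past 3-fold therefore included a promoter rich in CG and promoters nearly without it, and ADAMTS2 and ADAMTS3 both had many. The RefSeq table matched 31 of the 50 members by symbol, and the other 19 were A2M, ADAMTS1, ADAMTS4, ADAMTS5, ADAMTS8, ADAMTS9, ADAMTS15, ADAMTS16, MMP1, MMP2, MMP3, MMP9, MMP13, MMP16, MMP17, MMP19, MMP25, PLAT and TIMP2. Among the matched genes the median was 23 CG dinucleotides for the 8 called higher, 3 for the 3 called lower, 12 for the 9 under 3-fold and 6 for the 11 not scored, beside a median of 10 over the 27305 symbols of the table. The AP-1 motif TGAGTCA, searched on both strands, was found in the window of 2 of the 31 members, MMP7 and PLAUR, and in 4.15% of all symbols. Neither of these genes was called.

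Interstitial collagenase MMP1, which cuts fibrillar collagens, was the most abundant member in both libraries. Its reads numbered 5364 in parental against 31273 in CARM1 KO cells, a level 5.69-fold higher in the knockout (95% interval 5.53 to 5.86). Per length, at 62.9 and 358 RPKM (TMM-scaled reads per kilobase of merged exons of the annotation, the scale of every level per length here), it made up 85.8% of the summed MMP level in parental and 95.7% in CARM1 KO cells. MMP1 was called with a fold above 5 but not by edgeR's exact test with an assumed coefficient of variation of 0.4. The gene spans positions 102660132 to 102668891 of chromosome 11 (GRCh37, minus strand).

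MMP10, stromelysin-2, which cuts proteoglycans and fibronectin and activates other MMPs, is the next gene of the same cluster, from 102641233 to 102651359, with 8.77 kb between the genes. MMP10 had 328 reads in parental against 10 in CARM1 KO cells. That is 33.6-fold less in the knockout (95% interval 18.0 to 70.7), so these adjacent genes went opposite ways. MMP10 was 7th in level per length among all members in parental cells, at 5.99 (9th with the longest coding transcript), and stood at 0.178 in CARM1 KO cells.

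The other analysed genes of the MMP cluster on chromosome 11 had few reads. MMP3, stromelysin-1, had 3 reads in parental against 11 in CARM1 KO cells, and MMP7, MMP8, MMP13, MMP20 and MMP27 had at most 1 read in either library. Over all scored protein-coding genes, 12.1% were higher and 8.43% were lower past 3-fold. Neighbours here and below are the 5 nearest scored protein-coding genes on each side that are no members. Of these 10 around MMP1 and MMP10, 4 were higher and 0 were lower past 3-fold, with a median log2 fold change of 1.17. They spanned 2.96 Mb. The 4 were BIRC3, at 95 and 520 reads, PDGFD, at 37 and 122, CASP4, at 1631 and 6736, and CASP1, at 14 and 112, named here after their values were seen. Along the direction of transcription from the MMP1 start, BIRC3 lay at 470 kb and PDGFD, CASP4 and CASP1 at -1238, -2158 and -2232 kb.

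Among the other secreted MMPs, MMP19, which cuts basement membrane proteins, had 27 reads in parental against 201 in CARM1 KO cells, a 7.27-fold higher level (95% interval 4.85 to 11.3). MMP19 overlaps a pseudogene on the other strand with 31 and 59 reads, and the use of strand in the counting is not given. MMP11 had 54 and 25 reads and was 2.21-fold lower (95% interval 1.35 to 3.71), under the fold threshold. The gelatinases, which cut denatured collagen and basement membrane collagen, were at or near 0 reads. MMP2 had 0 reads in both libraries, where a count of 0 allows up to 3 reads, and MMP9 had 2 reads in parental against 17 in CARM1 KO cells, 1 read short of being scored. The ratio of MMP9 was 8.30 (95% interval 1.97 to 74.1). MMP21 had 1 and 2 reads, and MMP26 had 0 reads in both.

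All 7 membrane MMPs of the rule were in the table, 6 were scored, and 4 of those were higher past 3-fold and 0 lower. The higher ones were 66.7% of those scored, beside 12.3% over all genes. MMP14, the membrane-type enzyme that activates proMMP2 in a complex with TIMP2, had 268 reads in parental against 1053 in CARM1 KO cells, and was 3.84-fold higher (95% interval 3.35 to 4.40). MMP15, a close relative, had 52 and 290 reads, 5.45-fold higher (95% interval 4.04 to 7.47). Both MMP14 and its partner TIMP2 were thus higher in CARM1 KO cells, while MMP2 had 0 reads in either library.

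MMP16, another transmembrane enzyme, hardly differed, with 189 reads in parental against 190 in CARM1 KO cells (fold change 0.982, 95% interval 0.799 to 1.21). MMP17, which is anchored by a lipid tail, had 29 and 46 reads, and its interval from 0.953 to 2.56 included no change. MMP25, of the same type, had 2 and 0 reads. For MMP23B and MMP24 the reads cannot be assigned with certainty. MMP23B had 49 and 246 reads, 4.90-fold higher (95% interval 3.60 to 6.81), but its near-identical pseudogene MMP23A had 0 and 24 reads, and MMP23B overlaps CDK11B on the other strand. MMP24 had 8 and 33 reads, 4.03-fold higher (95% interval 1.82 to 10.1), and overlaps MMP24OS on the other strand, which had 75 and 254 reads. Whether strand was used in the counting is not given in the sources used here, so the reads of MMP24 and MMP24OS cannot be told apart.

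**Figure D2:**
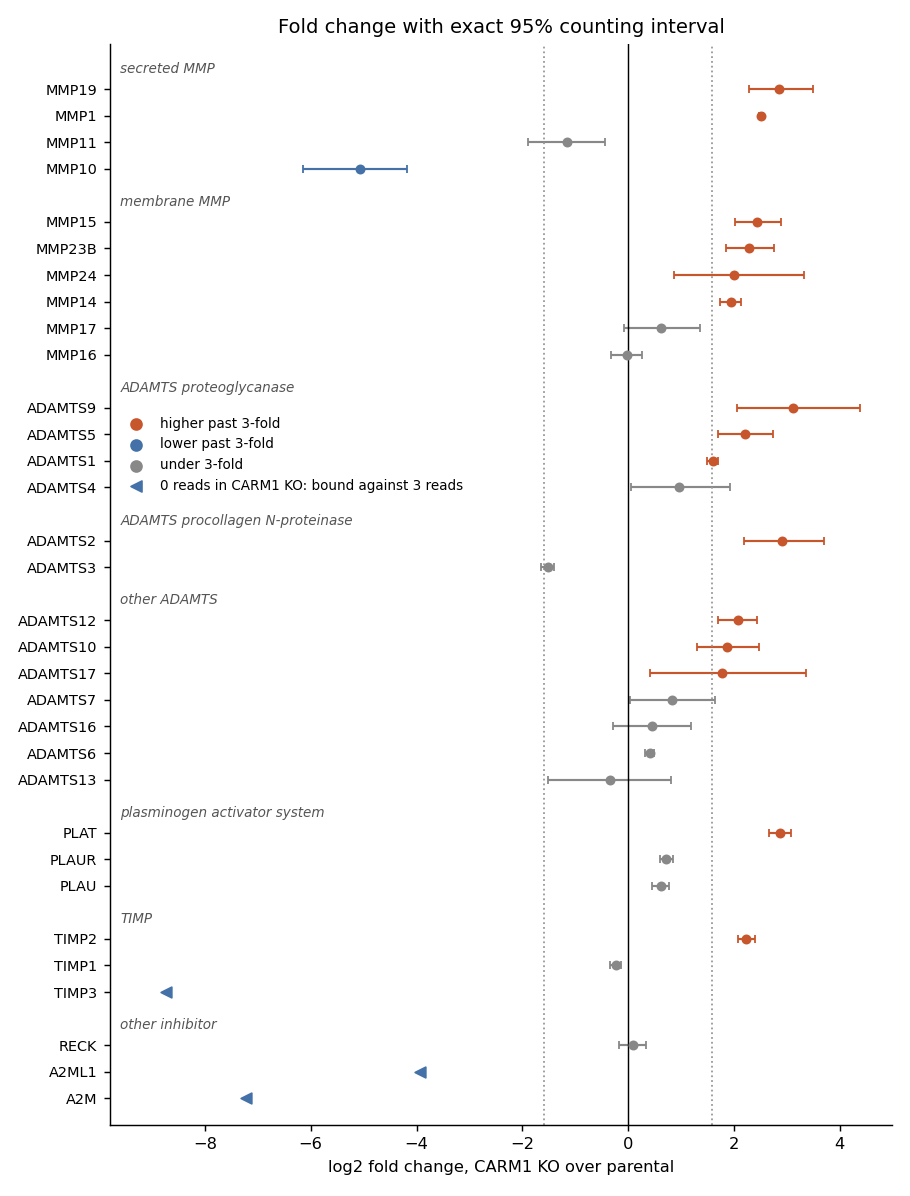
Log2 fold change of CARM1 KO over parental for the 32 scored members, with bars for the exact 95% counting interval and dotted lines at 3-fold. Orange points are higher and blue points lower past 3-fold, grey points are under it, and triangles are bounds for the 3 genes with 0 reads in CARM1 KO cells.

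ADAMTS genes past 3-fold were all higher, and with a fold above 2 ADAMTS3 was called lower. The table held 19 of them, 13 were scored, 7 were higher past 3-fold, 0 were lower and 6 were under the threshold. The higher ones were 53.8% of those scored, beside 12.3% over all genes. The largest fold change was that of ADAMTS9, a versican and aggrecan protease, with 8 reads in parental against 71 in CARM1 KO cells, 8.67-fold higher (95% interval 4.17 to 20.9). ADAMTS5, the main aggrecanase of cartilage, had 39 and 185 reads, 4.63-fold higher (95% interval 3.27 to 6.72). ADAMTS1, which cuts versican and is needed for ovulation, lies 72.5 kb from ADAMTS5 on chromosome 21 and had 1049 and 3260 reads. Its 3.04-fold higher level (95% interval 2.83 to 3.26) only just passed the threshold, and with scaling by library size alone its log2 fold change of 1.56 did not pass.

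Of the remaining proteoglycan proteases, ADAMTS4 had 16 and 32 reads, 1.95-fold higher (95% interval 1.04 to 3.81) and under the threshold. This value is uncertain, since the use of strand in the counting is not given. ADAMTS8 and ADAMTS15 had 0 reads in both libraries and ADAMTS20 had 0 reads and 1 read.

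ADAMTS2, ADAMTS3 and ADAMTS14 remove the amino-terminal propeptide of fibrillar procollagens. ADAMTS3 was the 4th member by level per length in parental cells, at 8.51, and had 1858 reads there and 663 reads in CARM1 KO cells. It was 2.87-fold lower (95% interval 2.62 to 3.14), under the threshold. ADAMTS2 had 18 reads in parental against 139 in CARM1 KO cells, 7.54-fold higher (95% interval 4.60 to 13.1). The order did not turn over, since ADAMTS3 stood at 2.97 and ADAMTS2 at 0.486 per length in CARM1 KO cells. ADAMTS14 had 1 and 7 reads and was not scored. Of the fibrillar procollagen genes counted among the fibroblast markers, COL3A1 had 14587 reads in parental against 1 in CARM1 KO cells and COL1A2 had 16732 and 3, while COL1A1 had 131 and 537 and was higher past 3-fold (95% interval of the fold change 3.30 to 4.88).

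ADAMTS6, which has roles in fibrillin matrix and heart development, was the most abundant ADAMTS by reads in parental cells, with 2077 reads, against 2828 in CARM1 KO cells. The difference was 1.33-fold (95% interval 1.26 to 1.41). Its closest relative ADAMTS10 had 32 and 120 reads, 3.66-fold higher (95% interval 2.46 to 5.59). ADAMTS12, which cuts cartilage oligomeric matrix protein, had 77 and 331 reads, 4.20-fold higher (95% interval 3.27 to 5.45). ADAMTS17 had 6 and 21 reads, and its 3.42-fold higher level had an interval from 1.33 to 10.4.

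ADAMTS7, a relative of ADAMTS12, had 22 and 40 reads, and ADAMTS16 had 28 and 39. ADAMTS13, which cuts von Willebrand factor, had 16 and 13 reads, and these 3 genes were under the threshold. ADAMTS7 overlaps MORF4L1, with 9070 and 5348 reads, and ADAMTS13 overlaps REXO4, with 1770 and 1448 reads, in both cases on the other strand. ADAMTS19 had 1 read in each library and ADAMTS18 had 0 reads in both. Summed per length, the ADAMTS genes stood at 22.0 in parental and 31.0 in CARM1 KO cells. ADAMTS3 made up 38.7% of that level in parental and 9.57% in CARM1 KO cells, and ADAMTS1 made up 21.0% and 45.1%.

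TIMP3, the matrix-bound inhibitor of MMPs, ADAMTS enzymes and sheddases, was the 3rd member by level per length in parental cells, and the 6th with the length of the longest coding transcript. TIMP3 had 1251 reads in parental against 0 in CARM1 KO cells. Taken against 3 reads, TIMP3 was at least 427-fold lower in the knockout, and the exact interval began at 347. By qRT-PCR, the study also reported lower TIMP3 mRNA in CARM1 KO A1847 cells. At the TIMP3 promoter of those cells it reported less BAF155, SNF5, BRG1 and RNA polymerase II. In CARM1-expressing A1847 cells, it reported suppression of TIMP3 by a BAF155 mutant that CARM1 cannot methylate. Neither was examined here. The gene spans positions 33197691 to 33259028 of chromosome 22 (GRCh37, plus strand) inside SYN3 on the other strand, which had 1 read in parental against 0 in CARM1 KO cells. The neighbouring genes, 5 on each side over 3.70 Mb, did not share this difference. Of these 10 scored protein-coding genes, 0 were higher and 0 were lower past 3-fold, with log2 fold changes from -0.92 to 1.34. Their median was -0.14.

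TIMP2, which inhibits MMPs and helps MMP14 activate MMP2, had 386 reads in parental against 1866 in CARM1 KO cells. It was 4.72-fold higher (95% interval 4.23 to 5.28). TIMP1, a secreted inhibitor of most MMPs, had 1391 and 1209 reads, 1.18-fold lower (95% interval 1.09 to 1.27). TIMP4 had 5 and 8 reads and was not scored, and overlaps SYN2 on the other strand, with 54 and 3 reads.

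The summed TIMP reads were close in the 2 libraries, 3033 in parental and 3083 in CARM1 KO cells, although their makeup was not. Per length the sum was 41.8 in parental and 35.9 in CARM1 KO cells. TIMP1 held 74.0% and 73.1% of it, TIMP3 held 20.9% and 0%, and TIMP2 held 4.78% and 26.3%. With the length of the longest coding transcript in place of merged exons, TIMP2 held 6.40% and 31.5%. Over the same libraries the summed MMP level went from 73.3 to 374 per length, and without MMP1 from 10.4 to 16.0. Of the fibroblast markers given above, 6 of 8 scored were lower, beside 10.1% over all genes, with PDGFRA and COL1A2 near 0 reads in CARM1 KO cells. These lower markers moved with TIMP3, and their part in the TIMP3 result was not tested. Both libraries came from cultured A1847 cells. In bulk RNA, fewer cells expressing a gene and less RNA per cell cannot be told apart.

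**Figure D3:**
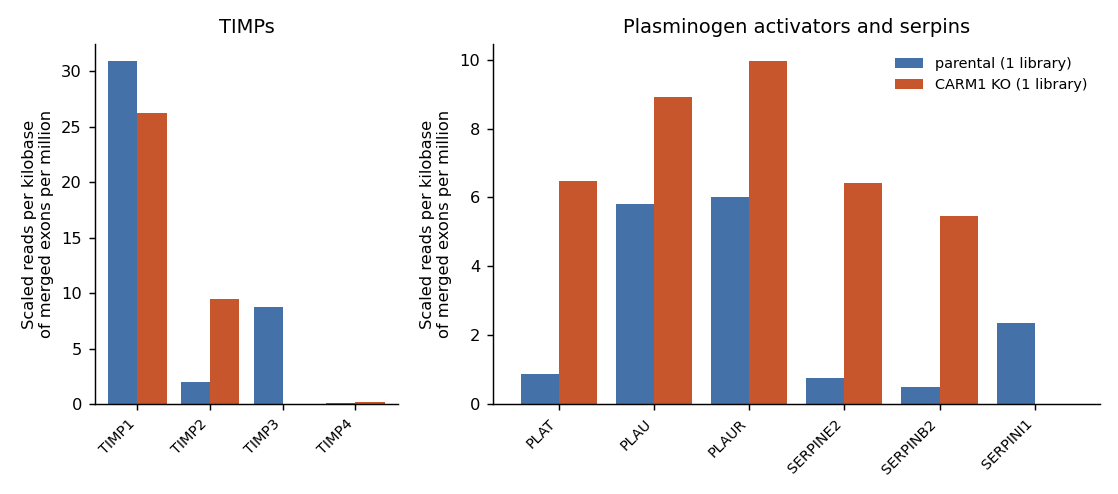
Level per length (TMM-scaled RPKM over merged exons) in the single parental library (blue) and the single CARM1 KO library (orange), for the TIMPs on the left and for plasminogen activators, their receptor and serpins on the right. TIMP3 stands at 8.74 in parental and 0 in CARM1 KO cells, TIMP2 reaches 9.43 in CARM1 KO cells, and SERPINE2 goes from 0.764 to 6.40.

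Alpha-2-macroglobulin and its relative were both at 0 reads in CARM1 KO cells. A2M had 441 reads in parental against 0 in CARM1 KO cells and was at least 151-fold lower. A2ML1, an epithelial relative of A2M, had 45 and 0 reads, at least 15.4-fold lower. These genes lie 181 kb apart on chromosome 12, A2M from 9220260 to 9268825 on the minus strand and A2ML1 from 8975217 to 9039597 on the plus strand.

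PHC1, M6PR and KLRG1 lie between them and had 1707 and 827, 7493 and 5544, and 33 and 12 reads in parental and CARM1 KO cells. Each had fewer reads in CARM1 KO cells but differed by less than 3-fold, and none was at 0. A2M-AS1, which overlaps A2M on the other strand, had 44 and 37 reads. Taking the 5 nearest scored protein-coding genes on each side, the median was 0.35 on the log2 scale around A2M and 0.45 around A2ML1. Like TIMP3, A2M and A2ML1 were at 0 reads in the library in which most fibroblast markers were low, and the part of those marker genes was not tested. RECK, the membrane-anchored inhibitor, differed little, with 234 and 254 reads (fold change 1.06, 95% interval 0.884 to 1.27).

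**Figure D4:**
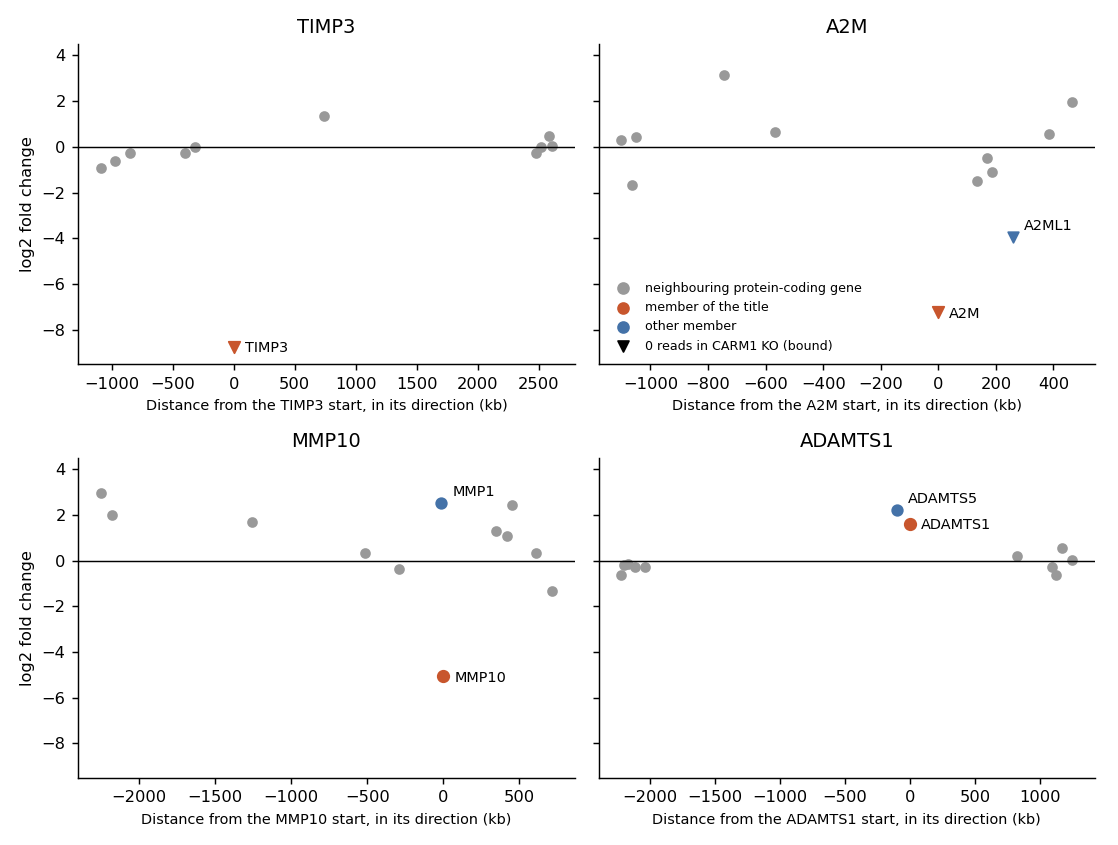
Log2 fold change, CARM1 KO over parental, against distance (kb along the direction of transcription) from the start of TIMP3, A2M, MMP10 and ADAMTS1. Grey points are the 5 nearest scored protein-coding neighbours on each side, and blue points are other members close by. TIMP3 and A2M (triangles, bounds for 0 reads) stand far below their neighbours, and MMP10 and MMP1 lie side by side on opposite sides of 0.

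Tissue plasminogen activator PLAT was the most changed gene of the plasminogen system among the members. It had 214 reads in parental against 1608 in CARM1 KO cells, 7.34-fold higher (95% interval 6.36 to 8.50). PLAU, the urokinase activator, had 534 and 838 reads, 1.53-fold higher (95% interval 1.37 to 1.71). Its receptor PLAUR had 836 and 1415 reads, 1.65-fold higher (95% interval 1.52 to 1.80). The intervals of PLAU and PLAUR excluded no change by counting error, but both were under the threshold.

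Serpins counted here as inhibitors of these activators, of plasmin or of related serine proteases were also mostly higher. Of 7 genes counted, all scored, 5 were higher (71.4%) and 1 was lower (14.3%) past 3-fold, beside 12.3% and 10.1% over all genes. SERPINB6, the most abundant of them, had 3018 and 3158 reads and differed little (fold change 1.02, 95% interval 0.972 to 1.07). SERPINE2 had 213 and 1829 reads, 8.39-fold higher (95% interval 7.27 to 9.71). SERPINB2, an inhibitor of PLAU, had 42 and 476 reads, 11.1-fold higher (95% interval 8.07 to 15.6).

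SERPINA5, with 9 and 86 reads, SERPINB8, with 191 and 680, and the plasmin inhibitor SERPINF2, with 4 and 32, were the other higher ones. SERPINI1, neuroserpin, an inhibitor of PLAT, had 156 reads in parental against 1 in CARM1 KO cells, a ratio of 160 to 1 with an interval from 28.2 to 6349. PLG, the gene of plasminogen itself, had 1 and 5 reads.

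Companion groups of the matrix protease system were counted in the same way. Over all scored genes 12.3% were higher and 10.1% were lower, and the ADAM family genes, with 11.1% higher, lay near the former share. Among 11 ADAM family genes, of which most but not all encode sheddases, 9 were scored and 1 was higher, ADAM23, with 14 and 68 reads. ADAM9 was the most abundant, with 9199 and 25741 reads, 2.73-fold higher (95% interval 2.67 to 2.80) and under the threshold. Of 12 cathepsin, cystatin and heparanase genes, 11 were scored, 4 were higher and 1 was lower. The lysosomal proteases CTSL, with 1251 and 4060 reads, and CTSZ, with 1859 and 6607, were higher, as were the cystatin CST6, with 11 and 52, and heparanase HPSE, with 91 and 438. HPSE2, a relative of heparanase without its activity, had 339 and 0 reads, at least 116-fold lower against 3 reads (exact interval from 93.6). CTSB was the most abundant, with 3846 and 11464 reads, 2.91-fold higher (95% interval 2.81 to 3.02) and under the threshold.

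Of 7 astacin proteases and their enhancers 5 were scored. PCOLCE, which speeds the removal of the carboxy-terminal propeptide of procollagen, had 1187 and 93 reads, 13.1-fold lower (95% interval 10.6 to 16.3), and PCOLCE2 had 491 and 161, 3.12-fold lower (95% interval 2.61 to 3.75). TLL1 had 1 and 22 reads, a ratio of 21.5 with an interval from 3.47 to 887. Of 12 activating proteases and cofactors, 7 were scored, with the hyaluronan receptor CD44, at 2407 and 10946 reads, and PCSK5, at 21 and 80, higher and PCSK6, at 322 and 106, lower. Furin, which activates membrane-type MMPs, had 421 and 269 reads, 1.60-fold lower (95% interval 1.37 to 1.87), and BSG, a cell-surface inducer of MMPs, was the most abundant of them in parental cells with 3558 reads.

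Of 8 clearance receptors, 6 were scored, with VLDLR, at 46 and 228 reads, higher and LRP1B, at 342 and 11, lower. LRPAP1, a chaperone of these receptors, was the most abundant with 2078 and 1639 reads. LRP1, which takes up protease and inhibitor complexes, had 256 and 492 reads, 1.88-fold higher (95% interval 1.61 to 2.19). Of 7 ADAMTS-like and papilin genes, 6 were scored and ADAMTSL1 was higher, with 8 and 26 reads, while ADAMTSL3 was the most abundant with 386 and 730.

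Among 11 proteoglycans and other substrates, 6 were scored, with BGN, at 25 and 150 reads, higher and DCN, at 24 and 0, and NID1, at 1470 and 190, lower. Versican, a substrate of ADAMTS1, ADAMTS5 and ADAMTS9, had 833 and 422 reads, 2.02-fold lower (95% interval 1.80 to 2.28). Of 12 AP-1 and ETS factors, all scored, JUN, at 842 and 5134 reads, FOSL2, at 617 and 2374, and ETS1, at 1796 and 6333, were higher, and JUNB, at 524 and 163, and JUND, at 952 and 271, were lower. Members of these families are known regulators of MMP genes, and no binding was measured here.

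**Figure D5:**
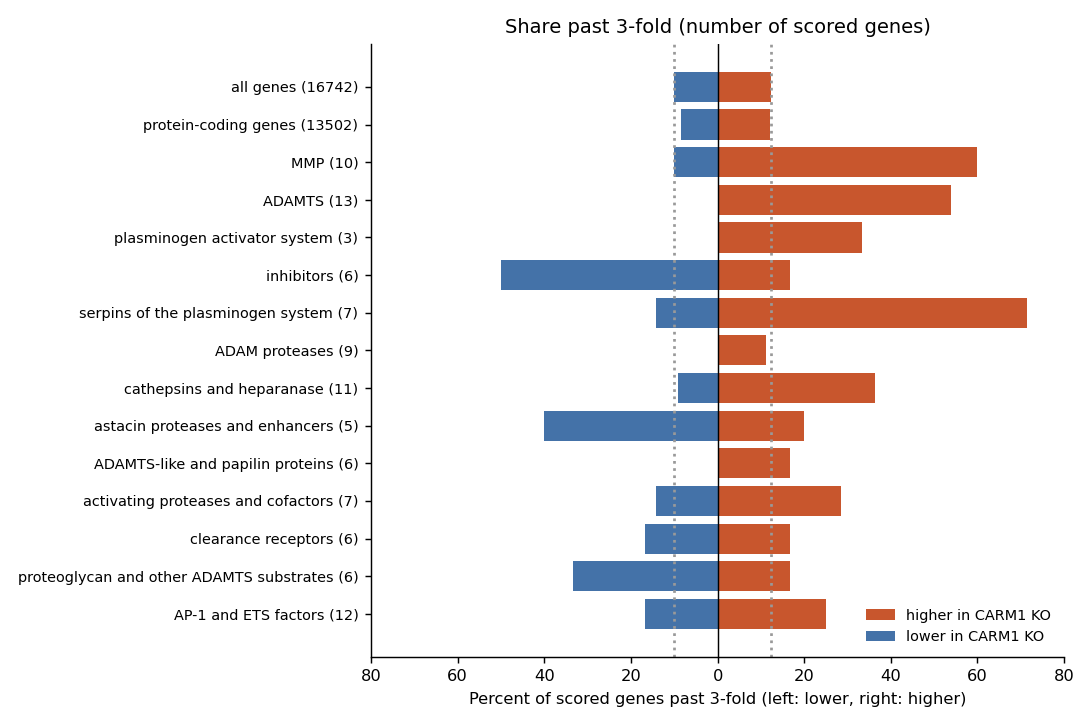
Percent of scored genes that were higher (orange, right) or lower (blue, left) past 3-fold in CARM1 KO cells, for the members by family, the companion lists and all genes, with the number of scored genes in brackets and dotted lines at the share over all genes (12.3% higher, 10.1% lower). MMP genes (60.0% of 10), ADAMTS genes (53.8% of 13) and serpins of the plasminogen system (71.4% of 7) reach furthest to the right, and inhibitors among the members (50% of 6) reach furthest to the left.

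For the 15 members called higher, the 5 nearest scored protein-coding genes on each side spanned 0.235 Mb at MMP19 to 5.24 Mb at ADAMTS9. Their median log2 fold change ran from -0.40 at ADAMTS12 to 1.17 at MMP1. Around ADAMTS1 and ADAMTS5, which share their neighbours, 0 of 10 were called and the median was -0.23. Around PLAT the neighbours had a median of 0.63 with 0 of 10 called, and around TIMP2 there were 2 higher and 2 lower. MMP1 and MMP10 stood alone in having neighbours with a median above 1.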

How the data were processed

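RNA-Seq libraries of parental and CARM1 KO A1847 cells, 1 each, were compared. The authors aligned reads to hg19 with bowtie2 and deposited estimated counts per Ensembl gene, made with RSEM (1.2.3 in the submitters' processing notes, another version in the paper's methods). The values are integers and are not normalized. Reads that match several genes are shared out by RSEM, so near-identical copies are uncertain. The Ensembl release and the use of strand are not given in the sources used here.

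Symbols came from the GENCODE annotation on GRCh37, which held 55501 of 57736 identifiers. From the deposited counts, levels were scaled by TMM (edgeR 4.0.16, R 4.3.3), called at above 3-fold where the libraries summed to 20 reads or more, and given exact binomial intervals (scipy 1.17.1) and a floor of 3 reads. Depth was 30741953 and 32300391 reads. Reads are not independent molecules, so intervals and floors cover counting error only. The calling steps were tested on simulated data. With 1 library per group there is no spread to fit edgeR's quasi-likelihood model to, and no test is given. Levels per length used merged exons of the annotation, not RSEM's lengths.

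Named genes were all members called, TIMP1 to TIMP4, the 6 members listed by symbol, the 5 highest per length in each library, and in the companion and marker lists the called genes and the highest by reads. Some genes of the lists and some overlapping genes are not reported here and were left out of the counts of their list. Other genes were added after their values were seen. The members and lists were chosen with earlier results of these data known. Alternatives were other scalings (DESeq2 1.42.0 size factors, upper quartile, library size), minimums, fold thresholds and edgeR's exact test with an assumed spread.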

Additional observations from a re-analysis of the deposited data

How the results depend on the processing

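Over the alternatives for counts, medians and the order of levels per length, 42 values were kept and 11 were not. A count was kept within 1.5 times of the first count and a median within 0.1 of the first median. With the longest coding transcript, 4 of the 5 highest members per length were shared in each library. With a fold above 5, 6 members were higher (ADAMTS2, ADAMTS9, MMP1, MMP15, MMP19 and PLAT), and over all genes 1030 were higher and 1097 lower. With a fold above 2, 3207 genes were higher and 2872 lower over all genes, while the same 15 members were called higher and the members called lower went from 4 to 6, with ADAMTS3 and MMP11. With no minimum of reads, 2569 of all genes were lower and the members' median log2 fold change was 1.28. Where the interval itself had to lie past 3-fold, 1268 of all genes and 11 members were higher, without ADAMTS1, ADAMTS10, ADAMTS17 and MMP24. edgeR's exact test with an assumed coefficient of variation of 0.4 left 4 members higher (ADAMTS2, ADAMTS9, MMP19 and PLAT), with 557 higher and 851 lower over all genes, because it assumes a wider spread, and MMP1 was not among them. TIMP3, A2M and MMP10 were called lower under each alternative run, and A2ML1 in each except a minimum of 50 reads. For single members, 102 of 104 further values kept their side of 3-fold. ADAMTS1 lost its call with library size only (log2 fold change 1.56) and ADAMTS17 with a prior count of 2. No paired analysis was possible because each genotype has 1 library, and for the same reason no library could be left out. Depth limits the genes under 20 reads, where MMP9 and MMP3 would be called higher with a minimum of 10 reads.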
